A study of Homo sapiens with 6 samples.

Results

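The genes described here serve protein folding and quality control in the endoplasmic reticulum (ER). They are 32 listed genes of the ER chaperones, of ER-associated degradation (ERAD) and of the unfolded protein response, and 31 of them were measured, out of 18417 named genes. A gene was measured where the array annotation paired at least 1 probe set with its symbol alone, and the brightest such probe set stood for the gene. The remaining listed gene, PDIA3, was not analysed here. The list held 11 chaperones and co-chaperones, 5 oxidoreductases of disulfide bond formation, 10 ERAD factors, 5 stress sensors and transcription factors, and 1 subunit of the protein translocation channel. The cells were HCT116, an established human colorectal carcinoma line, grown in DMEM with 10% serum and taken 48 h after transient transfection. The control group received a duplex siRNA against GFP (3 arrays) and the other group a duplex against Che-1, the product of AATF (3 arrays). Both groups went through transfection, no untransfected cells are among the 6 samples, and only 1 cell line was used. Labelled RNA was prepared from 6 micrograms of total RNA per array.

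The ER folds secreted and membrane proteins with chaperones such as BiP and with enzymes that form disulfide bonds, and it returns proteins that fail to fold to the cytosol for degradation. When unfolded proteins build up, the transmembrane sensors IRE1, PERK and ATF6 raise the transcription of chaperone and ERAD genes and lower general protein synthesis. ATF6 and XBP1, the factor made after IRE1 splices its mRNA, bind ER stress elements in these promoters. PERK acts through the translation of ATF4, a factor that other eIF2alpha kinases also raise, for example when amino acids run short.

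AATF, the gene targeted, went against the labels. It read 7.55, 7.75 and 7.55 on the log2 scale on the arrays labelled control and 8.53, 8.81 and 8.87 on those labelled siChe-1, so every array labelled siChe-1 lay above every control array. The difference was 1.12 ± 0.13 (log2, SE, limma adjusted p = 0.00122, n = 3 each). With 3 arrays against 3 an exact permutation test (two-sided) cannot go below p = 0.1, which is what it gave. Groups are therefore named by their labels, and a positive difference means a higher value on the arrays labelled siChe-1. Whether the labels are exchanged cannot be settled from these files, and if they are, every direction given here turns, HERPUD1, PPP1R15A and ATF3 included. Separate cultures are not named in the labels, and the spread behind each p-value is that between arrays, which may be technical. SiChe-1 replicate 1 stood apart. It correlated at r = 0.984 and 0.986 with the other arrays labelled siChe-1 over the named genes, whereas those other two correlated at 0.996 and the control arrays with each other at 0.994 to 0.995. For the listed genes, differences that siChe-1 replicate 1 moved by over 1.5 times are given with and without it. Of the epithelial markers, EPCAM (10.3) and KRT8 (12.3) were bright over the 6 arrays, while VIL1 (3.67) and CDH17 (2.61), which mark differentiated intestinal cells, were near the low end of the scale. Of 24 markers of leukocytes, fibroblasts and endothelium, 20 had a mean under 4.5. The exceptions were CD68 (7.45), COL1A1 (7.21), ACTA2 (6.48) and TYROBP (5.95). The fibroblast markers ran from LUM (2.29) to COL1A1 and the endothelial ones from PECAM1 (2.90) to CDH5 (3.72). CD68, a lysosomal protein counted among the leukocyte markers, differed by -1.56 and KRT19 by -0.59, and no other marker passed the test. The 10 leukocyte markers, CD68 included, summed (log2) to 39.6 to 40.4 on the control arrays and 38.9 to 39.8 on the others. Of these 10, 6 had a difference above 0 (median 0.05), so the lower sum does not describe most of them. PTPRC, the pan-leukocyte marker, stood at 2.43. The part of CD68 and KRT19 in the results below was not tested.

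Promoter sequences were examined first, because the elements they hold are what the factors of the stress response are known to bind. The 250 bases before the annotated start were taken from RefSeq (GRCh38.p14) for the 29 listed genes that the table held. DERL1, DERL3 and PDIA3 had no entry. Both strands were searched for the ER stress element, which is CCAAT and CCACG with 9 bases of any kind between them, the type II ER stress element, ATTGG and CCACG with 1 base between them, the XBP1-type element TGACGTGG and the ATF4-type element TGATGNAA. The elements other than the first were chosen after the promoter table was seen. The first stood before 8 of the 29 genes (HSPA5, HSP90B1, CALR, CANX, CRELD2, PDIA6, ERO1B and XBP1), which is 27.6% of them, against 0.0916% of all 27305 genes in the table. With exactly 1 mismatch in those fixed letters it also stood before DNAJC3, SDF2L1, HERPUD1, SEL1L and SYVN1, a looser match found, without an exact one, for 1.58% of all genes. The type II element stood before HYOU1, SDF2L1 and HERPUD1 and before 0.0659% of all genes. The XBP1-type element stood before HYOU1 alone, where it overlaps a type II element, and before 0.78% of all genes. The ATF4-type element stood before 3.89% of all genes and, among the 29, before HERPUD1 alone. In the further lists described below it stood before CHAC1 (difference 2.21), ASNS (1.16), CEBPG (0.13), PPP1R15B (-0.03), SRPRB (-0.69) and ATF3 (-0.80). Genes with this element thus lay on either side of 0. Of the 8 genes with the first element 7 had a difference below 0 (49.1% of all genes did), with a median of -0.16. Without siChe-1 replicate 1 these were 6 of 8 and -0.11. All of the 8 but XBP1 are chaperones or oxidoreductases. Of the 15 measured genes of those roles, with or without the element, 13 had a difference below 0 (median -0.18, all arrays). The listed genes were chosen as genes of this response and the windows are genome sequence. The higher share of its elements among them is therefore not a result of the arrays. A match is a run of letters and not a shown binding site.

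The ER stress elements of 7 of the 8 genes are printed on the strand of the gene, with the fixed letters in capitals, because they are what these genes share in sequence. Where the element lies on the opposite strand it reads CGTGG to ATTGG.
HSP90B1 element, chr12:103930216-103930234, plus strand: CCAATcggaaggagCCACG
HSP90B1 element, chr12:103930321-103930339, plus strand: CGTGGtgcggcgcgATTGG
CALR element, chr19:12938384-12938402, plus strand: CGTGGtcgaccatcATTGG
CANX element, chr5:179698778-179698796, plus strand: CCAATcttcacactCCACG
CRELD2 element, chr22:49918554-49918572, plus strand: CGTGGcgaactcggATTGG
PDIA6 element, chr2:10812853-10812871, minus strand: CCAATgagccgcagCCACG
ERO1B element, chr1:236282183-236282201, minus strand: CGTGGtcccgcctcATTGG
XBP1 element, chr22:28800603-28800621, minus strand: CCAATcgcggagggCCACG

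The whole 250 bases are printed for HSPA5, the classical target of the response, for HERPUD1 and SDF2L1, which each hold a type II element and differed in opposite directions, and for CHAC1, an ATF4 target outside the list whose window holds the same ATF4-type letters, TTgCATCA on the strand of the gene, as that of HERPUD1. Capitals mark the fixed letters of the elements.
HSPA5 promoter, chr9:125241344-125241593, minus strand: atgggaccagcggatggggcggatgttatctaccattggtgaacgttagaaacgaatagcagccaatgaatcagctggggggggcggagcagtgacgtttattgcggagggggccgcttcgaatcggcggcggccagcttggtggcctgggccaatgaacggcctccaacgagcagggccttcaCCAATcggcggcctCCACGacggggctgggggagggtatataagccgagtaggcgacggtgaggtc
SDF2L1 promoter, chr22:21642052-21642301, plus strand: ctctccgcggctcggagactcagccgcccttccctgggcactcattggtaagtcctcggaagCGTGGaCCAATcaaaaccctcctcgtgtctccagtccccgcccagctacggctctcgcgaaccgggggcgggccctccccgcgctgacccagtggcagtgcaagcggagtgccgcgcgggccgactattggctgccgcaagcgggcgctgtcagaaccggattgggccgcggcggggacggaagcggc
HERPUD1 promoter, chr16:56931892-56932141, plus strand: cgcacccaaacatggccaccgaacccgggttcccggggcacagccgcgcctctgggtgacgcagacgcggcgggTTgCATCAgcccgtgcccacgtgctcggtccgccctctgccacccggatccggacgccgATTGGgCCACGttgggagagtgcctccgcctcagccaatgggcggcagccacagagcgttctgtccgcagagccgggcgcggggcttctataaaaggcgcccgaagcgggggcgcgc
CHAC1 promoter, chr15:40953221-40953470, plus strand: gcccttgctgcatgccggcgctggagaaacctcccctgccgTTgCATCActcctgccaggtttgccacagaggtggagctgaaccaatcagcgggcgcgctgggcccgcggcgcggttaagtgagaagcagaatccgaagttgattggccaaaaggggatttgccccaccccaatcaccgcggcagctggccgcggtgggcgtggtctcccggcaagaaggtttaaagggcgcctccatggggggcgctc

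**Figure D1:**
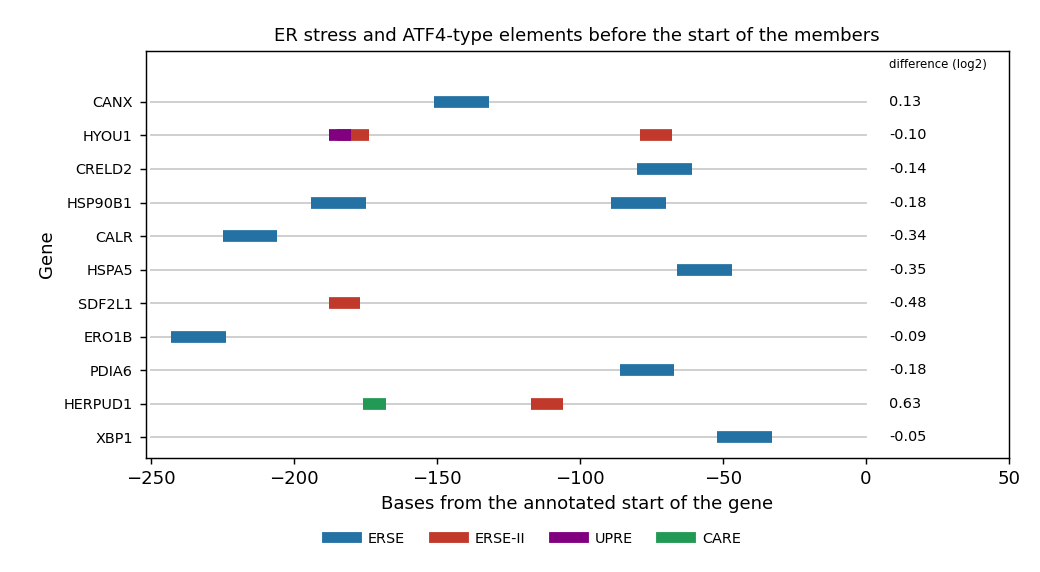
Positions of the 4 kinds of element in the 250 bases before the start of the 11 listed genes that hold any of them (x axis, bases from the annotated start; blocks are ER stress elements in blue, type II in red, XBP1-type in purple and ATF4-type in green). The number on the right is the difference, siChe-1 minus control, on the log2 scale: HERPUD1, which also holds the ATF4-type element, stands at 0.63 and the other genes with a type II element, HYOU1 and SDF2L1, at -0.10 and -0.48.

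Among the ERAD factors HERPUD1 was higher on the arrays labelled siChe-1, and it was the only measured gene of the list to pass the test with all 6 arrays. HERPUD1 encodes a membrane protein that organises the HRD1 degradation complex and is itself short-lived. It is known to be induced through ER stress elements and through ATF4. It read 8.27, 8.14 and 8.03 on the control arrays and 8.75, 8.84 and 8.74 on those labelled siChe-1. The lowest value of the second group was 8.74 and the highest of the first 8.27, so the groups did not overlap. The difference was 0.63 ± 0.12 (log2, SE, 95% confidence interval 0.37 to 0.89), a 1.55-fold rise with limma adjusted p = 0.0171 (n = 3 each). In RNA from whole cultures, more cells with the transcript and more transcript per cell cannot be told apart. The exact two-sided permutation test gave p = 0.1, the smallest possible. The size held between 0.57 and 0.69 when any 1 array was left out, but the adjusted p rose to 0.0850 and 0.0880 without control replicate 2 or 3 and to 0.0582 and 0.0615 without siChe-1 replicate 2 or 3. It was 0.00916 without siChe-1 replicate 1. The 1 call among 31 genes is a share of 3.23%, and over all genes 3.72% were called (1.19% higher and 2.52% lower), so the share of the list was near the background. Over the 31 genes the median difference was -0.13. Of them 20 had a difference below 0 (49.1% of all genes did), 11 had an unadjusted p under 0.05 (17.7% of all genes), 4 had an adjusted p under 0.1 (7.05% of all genes) and 13 had groups that did not overlap (24.0% of all genes).

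The other ERAD factors did not pass and lay on either side of 0. With HERPUD1 included, the 10 ERAD differences had a median of 0.02, beside 0.01 for all named genes. DERL3, a derlin of the channel that moves substrates to the cytosol, read 4.95, 4.85 and 5.09 on the control arrays and 5.84, 5.19 and 5.43 on the others. The groups did not overlap and the difference was 0.52 ± 0.17, with limma adjusted p = 0.124 (n = 3 each), and without siChe-1 replicate 1, its highest array, it was 0.35. DERL3 is dim, and the table has no detection calls, so its level is not shown to be above background. EDEM3, which trims mannose from substrates of degradation, read 6.99, 7.18 and 7.00 against 6.02, 6.72 and 6.73. Its groups were also apart, in the other direction, with a difference of -0.57 ± 0.19 (adjusted p = 0.140, limma, n = 3 each). SiChe-1 replicate 1 set much of that value, since without it the difference was -0.33.

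For 3 further ERAD genes replicate 1 lay far from replicates 2 and 3 of its group. In EDEM1 and SEL1L it was below every control array and the others above, and in SYVN1 it was the highest of all 6. EDEM1, a second mannose-trimming factor and a known XBP1 target, read 6.61, 6.61 and 6.58 on the control arrays and 6.06, 6.98 and 6.86 on the others. SEL1L, the adaptor of the HRD1 ligase, read 7.59, 7.22 and 7.24 against 7.01, 7.70 and 7.65. SYVN1, the HRD1 ubiquitin ligase itself, read 7.34, 6.85 and 7.25 against 7.76, 6.92 and 6.78. Their differences with all arrays were 0.04, 0.11 and 0.01, and without replicate 1 they were 0.32, 0.33 and -0.29, none past the test (limma adjusted p = 0.0974, 0.180 and 0.288). OS9, a lectin that hands glycoproteins to SEL1L, differed by -0.30, EDEM2 by -0.19, DERL2 by -0.10 and DERL1 by 0.15, with adjusted p between 0.371 and 0.751. Without siChe-1 replicate 1 these differences were -0.13, -0.16, -0.01 and 0.25.

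**Figure D2:**
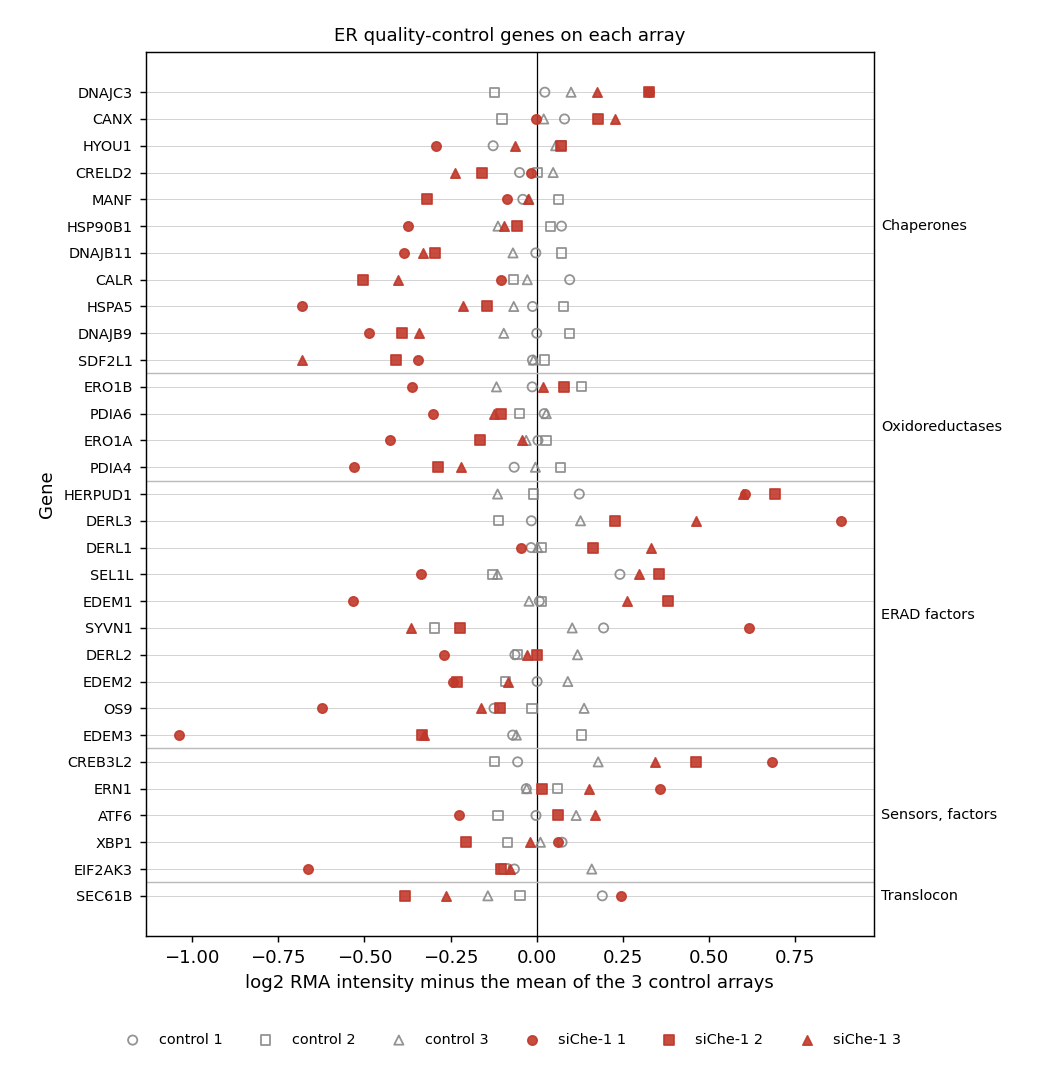
The 31 measured genes (rows, by role) on each array, as log2 RMA intensity minus the mean of the 3 control arrays (x axis). Open grey symbols are control arrays and filled red symbols are arrays labelled siChe-1, with circle, square and triangle for replicates 1, 2 and 3; HERPUD1 has 3 red symbols to the right of all grey ones, and replicate 1 is the lowest of the 6 arrays for 18 genes.

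Most chaperone genes read slightly lower on the arrays labelled siChe-1, and none passed the test. Of 11 measured, 9 had a difference below 0, the median was -0.18 and the range -0.48 to 0.28. By limma 0 were called, and 6 had an unadjusted p under 0.05, where 17.7% of all genes did. Among these 6 was DNAJC3, which read higher, and the others read lower. SDF2L1, a partner of the co-chaperone ERdj3, came nearest. It read 8.17, 8.21 and 8.18 on the control arrays and 7.84, 7.78 and 7.50 on the others. The control arrays lay close together (SD 0.02) and every array labelled siChe-1 was below them. The difference was -0.48 ± 0.13 (SE, limma adjusted p = 0.0705, n = 3 each). It passed without siChe-1 replicate 1 (-0.54, limma adjusted p = 0.0208), with arrays centred on their medians (adjusted p = 0.0493) and with weights per array (0.00219). It did not pass when any other array was left out (adjusted p = 0.112 to 0.230) or after a further quantile normalization (-0.38, adjusted p = 0.164).

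HSPA5 encodes BiP, the ER Hsp70 that also holds the sensors inactive. It read 11.20, 11.29 and 11.15 on the control arrays and 10.53, 11.07 and 11.00 on the others. The groups did not overlap, with a difference of -0.35 ± 0.15 and a 95% interval from -0.69 to -0.0037 (limma adjusted p = 0.277, n = 3 each), and without siChe-1 replicate 1, its lowest array, the difference was -0.18. CALR, the soluble lectin chaperone calreticulin, showed the opposite order of arrays, at 10.22, 10.06 and 10.10 against 10.02, 9.62 and 9.73. Its difference was -0.34 (adjusted p = 0.227), and without replicate 1 it was -0.45 and passed (limma adjusted p = 0.0346, n = 3 and 2).

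The BiP co-chaperones of the DnaJ family differed among themselves. DNAJB9 (ERdj4), which returns IRE1 to its BiP-bound state, read 5.78, 5.88 and 5.69 on the control arrays and 5.30, 5.39 and 5.44 on the others. DNAJB11 (ERdj3), which brings unfolded substrates to BiP, read 9.53, 9.61 and 9.47 against 9.15, 9.24 and 9.21. In both genes the groups were apart and replicate 1 was close to its fellows, with differences of -0.41 ± 0.12 (adjusted p = 0.0899) and -0.34 ± 0.11 (adjusted p = 0.142, limma, n = 3 each). DNAJC3 (p58IPK), an inhibitor of PERK as well as a co-chaperone, read 7.17, 7.02 and 7.24 against 7.47, 7.47 and 7.32. It lay in the other direction from those 2 genes, with groups apart and a difference of 0.28 ± 0.12 (limma adjusted p = 0.267, n = 3 each).

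The remaining 5 chaperones had overlapping groups. HSP90B1 (GRP94), the ER Hsp90, differed by -0.18 (95% interval -0.46 to 0.11). HYOU1 (GRP170), which exchanges the nucleotide of BiP, differed by -0.10 (-0.39 to 0.20), and CANX, the membrane-bound lectin calnexin, by 0.13 (-0.14 to 0.40). MANF and CRELD2, small ER proteins that leave the cell under stress, each differed by -0.14. Without siChe-1 replicate 1 the difference was -0.08 for HSP90B1, 0.0030 for HYOU1 and 0.20 for CANX. The intervals of all of these except CANX include the difference seen for HSPA5, so they do not show equal levels.

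The oxidoreductases lay below 0 too, and none passed. All 4 measured had differences below 0, with a median of -0.19, and by limma 0 were called, with 1 at an unadjusted p under 0.05. PDIA4 (ERp72), a protein disulfide isomerase, read 10.15, 10.28 and 10.21 on the control arrays and 9.68, 9.93 and 9.99 on the others. The groups were apart, with a difference of -0.34 ± 0.13 (limma adjusted p = 0.180, n = 3 each). PDIA6 read 11.37, 11.30 and 11.37 against 11.04, 11.24 and 11.22 (difference -0.18), and ERO1A, the oxidase that recharges these isomerases, read 9.08, 9.10 and 9.05 against 8.65, 8.91 and 9.03 (difference -0.21). In both the groups were apart by little, and the intervals were -0.43 to 0.08 and -0.50 to 0.08. Without siChe-1 replicate 1, the lowest array of each, the differences were -0.11 and -0.10. ERO1B, the second oxidase, read 4.22 to 4.71 on all arrays, dim like DERL3, and differed by -0.09.

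Chaperones and oxidoreductases together had 8 of 15 genes whose arrays labelled siChe-1 were all below the control arrays, and 1 whose arrays were all above. Over all genes 13.3% lay wholly below and 10.6% wholly above. Per array, the median deviation of these 15 genes from the control mean was -0.34, -0.16 and -0.12 on siChe-1 replicates 1, 2 and 3, and -0.0026, 0.04 and -0.02 on control replicates 1, 2 and 3. The genes were chosen with earlier results of these data known, so this count is a description and was not tested.

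**Figure D3:**
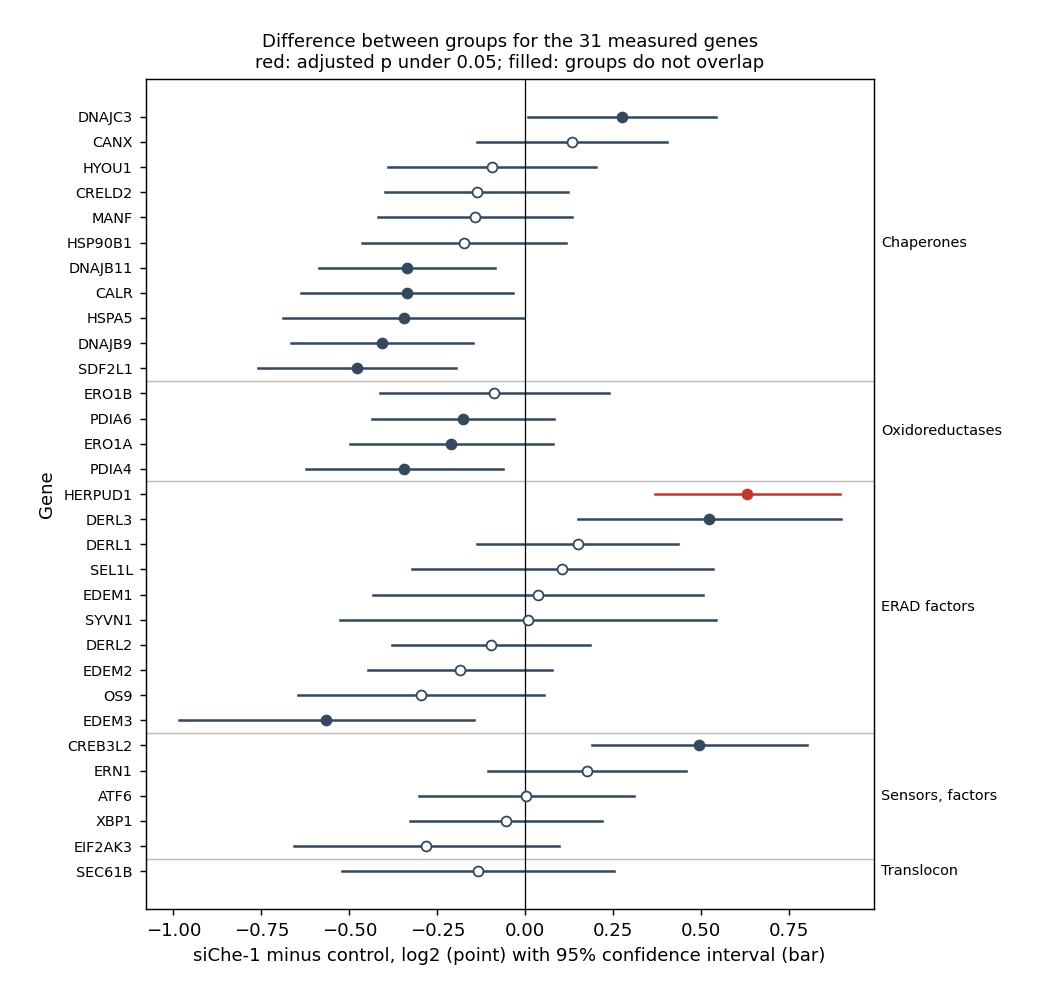
Difference between groups (x axis, siChe-1 minus control, log2) with its 95% confidence interval for each of the 31 genes, by role. The red point, HERPUD1 at 0.63, passed the test, and filled points are the 13 genes whose groups did not overlap: 9 below 0, of which 8 are chaperones or oxidoreductases, and 4 above.

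The sensors themselves did not differ past the test, and by limma 0 of the 5 genes were called, with 1 at an unadjusted p under 0.05. ERN1 (IRE1) read 6.22, 6.31 and 6.22 on the control arrays and 6.61, 6.26 and 6.40 on the others, an overlap of groups and a difference of 0.17 (95% interval -0.11 to 0.46), or 0.08 without siChe-1 replicate 1, its highest array. ATF6 read 8.65, 8.54 and 8.77 against 8.43, 8.72 and 8.82, with a difference of 0.0029 (-0.30 to 0.31), or 0.12 without that array. EIF2AK3 (PERK) read 6.04, 6.01 and 6.26 against 5.44, 6.00 and 6.02, where replicate 1 alone stood clear of the rest, and differed by -0.28 (-0.66 to 0.10), or by -0.09 without that array. XBP1 read 8.63, 8.47 and 8.57 against 8.62, 8.35 and 8.54, with a difference of -0.05 (-0.33 to 0.22), or -0.11 without replicate 1. A gene-level probe set does not report the splicing of XBP1, nor the cleavage of ATF6 or the phosphorylation of the kinases. CREB3L2 (BBF2H7), an ER-bound factor cleaved like ATF6, read 6.41, 6.35 and 6.65 against 7.15, 6.93 and 6.81. Its groups were apart, with a difference of 0.50 ± 0.14 (limma adjusted p = 0.0821, n = 3 each). SEC61B, a small subunit of the translocation channel, read 9.01, 8.77 and 8.68 against 9.06, 8.44 and 8.56 and differed by -0.13 (adjusted p = 0.753), or by -0.32 without siChe-1 replicate 1.

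Set by role, the median difference was -0.18 for the chaperones, -0.19 for the oxidoreductases, 0.02 for the ERAD factors and 0.0029 for the sensors and factors. The last 2 have no settled sign, since they were -0.02 and -0.04 with arrays centred on their medians and ranged from -0.08 to 0.12 and from -0.07 to 0.08 with 1 array left out. SiChe-1 replicate 1 was the lowest of the 6 arrays for 18 of the 31 genes (58.1%) and for 26.6% of all named genes. Without it the medians were -0.18, -0.11, 0.12 and 0.08, and 3 of the 31 genes were called (HERPUD1 higher, CALR and SDF2L1 lower), a share of 9.68% beside 8.50% of all genes. The changes of sign without that array were those of HYOU1 (to 0.0030), ERO1B (to 0.05) and SYVN1 (to -0.29).

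**Figure D4:**
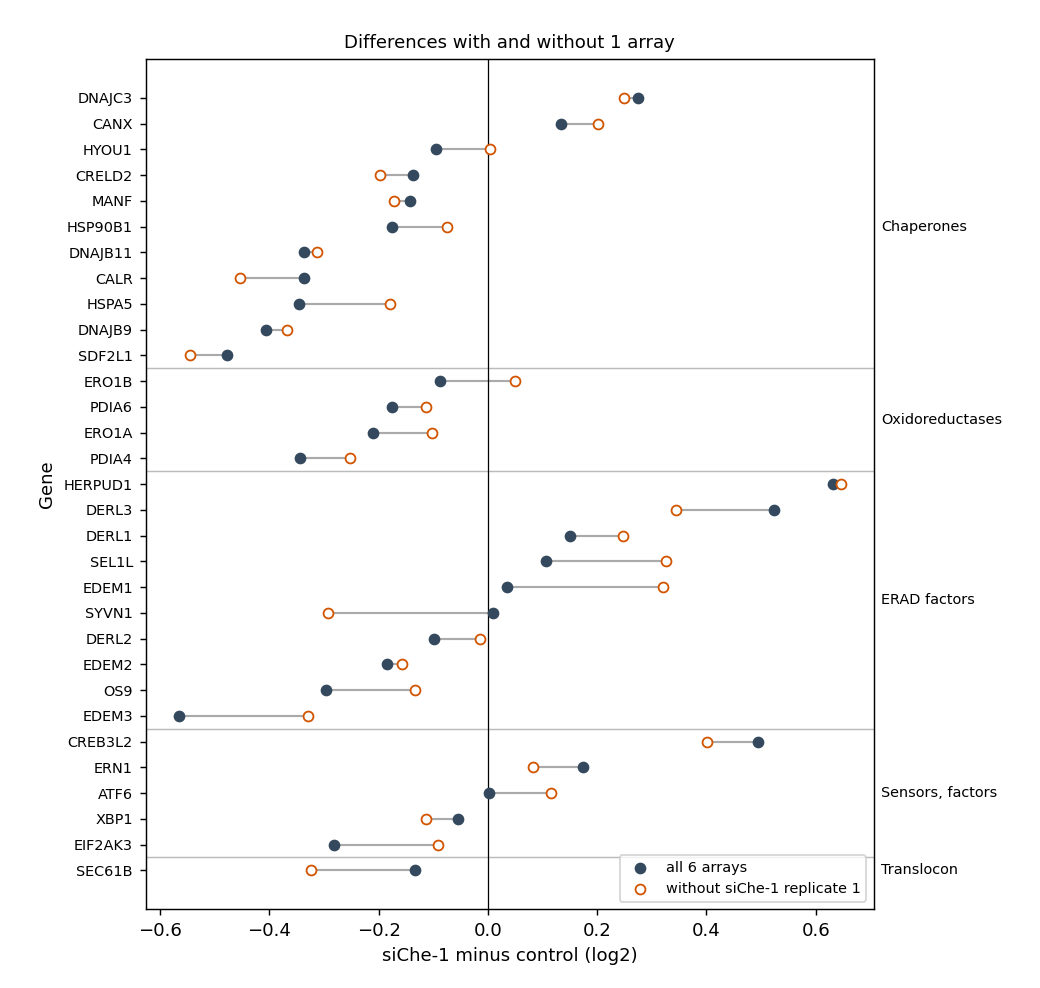
Difference between groups (x axis, siChe-1 minus control, log2) for each of the 31 genes with all 6 arrays (filled) and without siChe-1 replicate 1 (open). HERPUD1 moves from 0.63 to 0.65, whereas EDEM1 moves from 0.04 to 0.32 and SYVN1 from 0.01 to -0.29.

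ATF4 and genes known to follow PERK and ATF4 were measured for the same contrast, from a list of 18 that was drawn up with earlier results of these data known. Of these 6 were higher, 2 were lower and 10 did not pass (median difference 0.43), a share called of 44.4% beside 3.72% of all genes. CHAC1, which degrades glutathione, read 5.68, 5.84 and 5.88 on the control arrays and 7.91, 8.36 and 7.77 on the others, a 4.64-fold rise (limma adjusted p = 2.97e-05, n = 3 each). SLC7A11, the cystine transporter, rose by 1.63 on the log2 scale, ASNS, asparagine synthetase, by 1.16 and PHGDH, of serine synthesis, by 0.86. ATF4 read 9.32, 9.43 and 9.41 against 10.07, 10.29 and 10.24 on its brighter probe set, a rise of 0.81 (adjusted p = 0.00418), but its second probe set gave 0.11 (adjusted p = 0.752), so the 2 probe sets disagree. With the mean of a gene's probe sets ATF4 was not called. TRIB3, a pseudokinase induced late in ER stress, rose by 0.80 and, like ATF3, is named after its value was seen.

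The 2 lower genes of the list are also stress-induced. PPP1R15A (GADD34), the phosphatase subunit that reverses PERK signalling, read 7.86, 7.62 and 8.05 against 7.05, 6.88 and 6.55 and fell by 1.02 (limma adjusted p = 0.00722, n = 3 each). ATF3, a transcription factor, fell by 0.80 (adjusted p = 0.00368). DDIT3 (CHOP), the factor most often read as a sign of ER stress, read 6.56, 6.83 and 7.03 against 6.79, 7.19 and 7.18, with overlapping groups and a difference of 0.25 (95% interval -0.11 to 0.61). Of its arrays labelled siChe-1, only replicate 1 lay within the range of the control arrays, and the others lay above them. DDIT3 did not pass in the main fit (limma adjusted p = 0.475) and was called higher with weights per array. When any 1 array was left out, CHAC1, ASNS, ATF4 and TRIB3 stayed called, SLC7A11 and PHGDH were lost without siChe-1 replicate 3 or any control array, PHGDH also without siChe-1 replicate 2, and PPP1R15A without control replicate 3. Without siChe-1 replicate 1, 9 of the 18 were higher and 2 lower (61.1%), in a fit that called 8.50% of all genes.

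**Figure D5:**
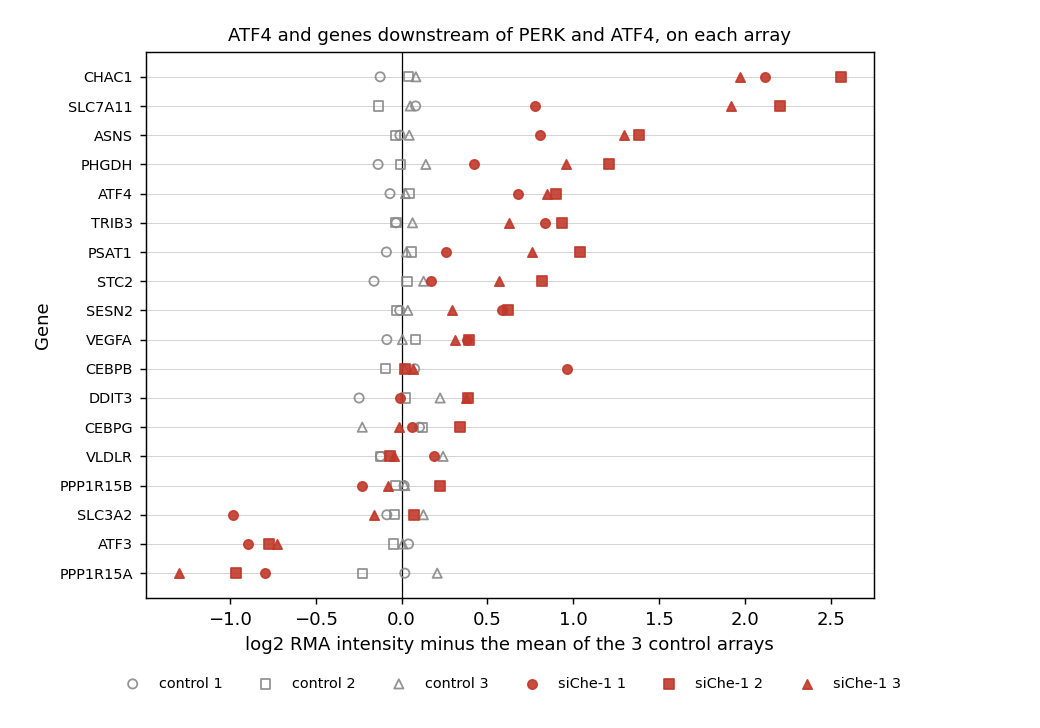
ATF4 and 17 genes known to follow PERK and ATF4 (rows) on each array, as log2 RMA intensity minus the mean of the control arrays (x axis); open grey symbols are control arrays and red symbols arrays labelled siChe-1. CHAC1 lies furthest to the right (difference 2.21), and ATF3 and PPP1R15A lie to the left with all 3 red symbols below the grey ones.

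Other genes of the ER came from 5 lists of translocation, glycosylation, folding, ERAD and stress regulation, with 113 genes measured of 120. Of them 5 were lower and 0 higher by limma, a share of 4.42% beside 3.72% of all genes. An unadjusted p under 0.05 was found for 22 of the 113 and for 17.7% of all genes, so neither of these shares was far from the background. Of the 113, 73 had a difference below 0 (49.1% of all genes did) and 40 above. Groups lay wholly below for 29 (25.7%, against 13.3% of all genes) and wholly above for 4. Of the 30 folding genes 22 were below 0 and 8 above, with a median of -0.21 (-0.16 without siChe-1 replicate 1). The chaperones stood at -0.18. Lower values were thus not particular to the listed genes, and these counts were not tested. In the folding list 3 of 30 fell, and they were SDF2 (by 0.65), a relative of SDF2L1, SERPINH1 (by 0.59), the collagen chaperone HSP47, and ERP44 (by 0.50), a thiol protein that retains ERO1 in the early secretory pathway. In the ERAD list 1 of 29 fell, YOD1, a deubiquitinase that works with p97, which read 7.09, 7.29 and 7.13 against 6.31, 6.37 and 6.42 (a fall of 0.81, limma adjusted p = 0.00414, n = 3 each). In the translocation list 1 of 22 fell, SRPRB, a subunit of the signal recognition particle receptor (by 0.69, adjusted p = 0.00858). None of 15 glycosylation genes passed by limma (3 at an unadjusted p under 0.05), with MOGS at -0.53 (adjusted p = 0.0766) and RPN2 at -0.31 (0.222). None of 17 stress regulators passed either (3 at an unadjusted p under 0.05), with CREB3 at -0.51 (0.0590) and NCK1 at -0.35 (0.142). Only YOD1 stayed called in every fit that left out 1 array, SRPRB was lost without control replicate 1 or 2, SDF2 without any control array or siChe-1 replicate 2, and SERPINH1 and ERP44 without any array except siChe-1 replicate 1.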

How the data were processed

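Each of the 6 samples was hybridised to 1 single-colour Affymetrix whole-transcript array. The deposited table holds log2 values, made by the authors with RMA, per the submitters' processing notes, which name Affymetrix Expression Console; versions and settings are not given in the sources used here. RMA sets all arrays to one distribution, so a shift in the whole transcriptome would be removed, and it compresses differences between dim genes. Array medians still lay between 4.95 and 5.00 for the control arrays and 5.03 and 5.05 for those labelled siChe-1, over 33297 probe sets. Of these 19460 had 1 symbol, 1754 several, and 12083 were not listed in the annotation. Among the probe sets with 1 symbol, 19429 had a gene identifier found in NCBI RefSeq (GRCh38.p14). For 769 genes with several probe sets the brightest was used, which left 18417 genes. None of the 31 measured members had several.

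The comparison was siChe-1 minus control, fitted with limma 3.58.1 (R 4.3.3; lmFit, eBayes) without covariates or filters. A gene was called at a Benjamini-Hochberg adjusted p under 0.05 over all 18417 genes. The procedure was tested on simulated data. The members and lists were chosen with earlier results of these data known, and no p is given for a list. The genes named are AATF, every member and up to 6 called genes of each further list (or the 2 with the smallest p). The called, dimmest and brightest markers are named too. EPCAM, VIL1, ACTA2, TYROBP, DDIT3, TRIB3, ATF3, CEBPG and PPP1R15B were named after their values were seen. The alternatives changed the normalization (quantile again, or array medians), the genes (without the dimmest 40%), the summary of probe sets (their mean), the variance model (trend with robust prior; weights per array; replicate number as block), the threshold (0.01 or 0.10) and the arrays (each left out). The number of arrays limits the precision. There were 0 other columns of values. Protein sequences were not used here.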

Additional observations from a re-analysis of the deposited data

How the results depend on the processing

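HERPUD1 kept its direction under every alternative (0.57 to 0.73) and missed the threshold of 0.01 (0.63, adjusted p = 0.0171); with arrays left out it was 0.57 to 0.69. AATF kept its direction and its call under all of them (1.05 to 1.23). Leaving out each array gave 63 to 739 genes higher and 199 to 826 lower in all, 0 to 1 members higher and 0 to 2 lower, 0 to 2 genes higher and 1 to 8 lower in the 5 ER lists, and 4 to 9 higher and 1 to 2 lower in the PERK and ATF4 list; the chaperones' median was -0.23 to -0.15. Weights per array gave 1348 higher and 1517 lower genes, 3 members higher (CREB3L2, DERL3, HERPUD1) and 4 lower (CALR, DNAJB11, DNAJB9, SDF2L1), 5 and 14 in the ER lists, 11 higher in the PERK and ATF4 list, and a sensors' median of 0.13. A threshold of 0.01 gave 64 and 197 genes, 0 members higher and 2 ER genes lower; 0.10 gave 494 and 805 genes, 2 and 2 members, and 9 ER genes lower. Centring gave 1 member lower (SDF2L1), and a further quantile normalization 1 ER gene higher (SEC63). The mean of a gene's probe sets gave 5 higher in the PERK and ATF4 list, where ATF4 was lost. The replicate number as a block gave 416 and 729 genes, 2 members higher (DERL3, HERPUD1) and 1 lower (EDEM3), and 8 ER genes lower. Same-numbered arrays deviated together with correlations of 0.23, 0.06 and -0.04, not every array correlated best with its own number, and the labels do not say what a number shares. The medians of the ERAD factors (-0.016 centred, -0.078 to 0.12 with arrays left out) and of the sensors (-0.036 centred, -0.072 to 0.083) turned sign. Of the members, 7 that did not pass turned sign. These were ERO1B (0.011 with weights, -0.17 to 0.050 with arrays left out), SYVN1 (-0.029 centred, -0.31 with weights, -0.29 to 0.20 with arrays left out), EDEM1 (-0.0029 centred, -0.14 to 0.32), XBP1 (0.035 with further quantile normalization, -0.11 to 0.022) and ATF6 (-0.036 centred, -0.081 to 0.12), and, with arrays left out alone, HYOU1 (-0.18 to 0.0030) and SEL1L (-0.020 to 0.33). The cause of these changes was not tested.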
